A study of Mus musculus with 159 samples.

Results

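The caseins and other milk protein genes were described across 159 mammary tumors. The set held 8 genes, named by symbol: the calcium-sensitive caseins Csn1s1 (alpha s1), Csn1s2a (alpha s2-like A), Csn1s2b (alpha s2-like B) and Csn2 (beta), the kappa casein Csn3, and the whey or milk glycoprotein genes Wap (whey acidic protein), Lalba (alpha-lactalbumin) and Glycam1 (a mucin-like secreted glycoprotein). Of 18954 genes with a probe set of a single symbol, 7 were members. The probe set that carries Lalba also carries the symbol Trip12, a ubiquitin ligase gene, so its values are described but were assigned to neither gene and entered no test.

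The tumors came from female offspring of a cross between FVB/NJ mice carrying the MMTV-PyMT transgene and Diversity Outbred mice of generation 7, an outbred stock descended from several inbred strains. The transgene puts the polyoma virus middle T oncogene under the mouse mammary tumor virus promoter, which drives expression chiefly in mammary epithelium. A single tumor was taken from each animal at about 100 days of age, with no treatment, and every animal carried the transgene. The series therefore formed a single group with no normal or lactating gland, and all comparisons were between tumors.

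Milk proteins are the products of terminally differentiated alveolar cells of the mammary gland. Calcium-sensitive caseins bind calcium phosphate and assemble into micelles, and kappa casein coats the micelle surface and keeps it in suspension. Transcription of these genes in the alveolar cell depends on prolactin, which acts through its receptor, the kinase Jak2 and the transcription factors Stat5a and Stat5b, together with glucocorticoid and the epithelial factor Elf5.

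Each value was a log2 expression level from an Affymetrix mouse gene array, so a difference of 1 is a doubling. Array medians lay between 6.81 and 7.18. A background level of 5.76 was taken as the 95th percentile of the mean levels of 1218 olfactory, vomeronasal and taste receptor genes, which mammary tissue should not express, and 14247 genes had a mean above it. Arrays usually correlated with the other arrays at a median r near 0.975, and 6 arrays stood lower, at 0.895 to 0.940. Another 9 tumors stood apart on a score of lymphocyte genes, with scores of 1.63 to 5.71, against -0.63 to 0.32 in the other 150 tumors. Results that changed without these arrays or tumors are given in both forms. In bulk tumor RNA, fewer cells of a type and less RNA per cell cannot be told apart.

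The 5 casein genes lie in a row on chromosome 5 in the order Csn1s1, Csn2, Csn1s2a, Csn1s2b and Csn3, while Wap is on chromosome 11 and both Glycam1 and Lalba are on chromosome 15. Because the members varied together across tumors, their RefSeq promoter windows (GRCm38.p6, from 250 bases before to 50 bases after the annotated start) were read for the letters TTCNNNGAA, the pattern that Stat5 proteins bind. The pattern is its own reverse complement, so a match stands on both strands. It was present in 8.3% of all 32851 windows and in 4 of the 6 member windows found, with no match in the windows of Wap and Lalba. Csn1s2b and Csn3 had no window in the table. The stretches that hold the match are printed 5′ to 3′ with the match in capitals. Those of Csn1s1, Csn2 and Glycam1 end at the base before the start, and that of Csn1s2a lies just after it.
Csn1s1, chr5:87666048-87666207 (plus strand): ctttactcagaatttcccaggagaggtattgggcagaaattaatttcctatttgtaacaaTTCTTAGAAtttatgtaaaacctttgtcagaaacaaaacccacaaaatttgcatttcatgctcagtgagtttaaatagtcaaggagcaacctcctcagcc
Csn2, chr5:87699426-87699585 (minus strand): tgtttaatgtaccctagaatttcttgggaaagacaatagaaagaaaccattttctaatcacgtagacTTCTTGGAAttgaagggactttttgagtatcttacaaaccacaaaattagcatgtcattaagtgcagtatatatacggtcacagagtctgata
Csn1s2a, chr5:87774460-87774488 (plus strand): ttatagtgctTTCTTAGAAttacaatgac
Glycam1, chr15:103565082-103565241 (minus strand): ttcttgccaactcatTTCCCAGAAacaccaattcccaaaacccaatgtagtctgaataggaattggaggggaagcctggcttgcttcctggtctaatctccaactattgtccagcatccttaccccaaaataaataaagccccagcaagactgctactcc
The first base of the match was 100 bases before the start in Csn1s1 and 93 bases before it in Csn2, and it lay farther out in Glycam1. In Csn1s2a it was 21 bases after the start, with the same letters as in Csn1s1. These matches describe the sequence only.

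The calcium-sensitive caseins Csn2 and Csn1s2a covered wide ranges across tumors. Csn2 (probe set 10531120) had a lowest level of 5.36, a median of 9.82 and a highest level of 12.72, and its mean was 9.55 ± 2.17 (SD, n = 159). It was above background in all but 6 of the 159 tumors. Csn1s2a (probe set 10522845) had a lowest level of 4.70, a median of 8.59 and a highest level of 12.38, with a mean of 8.54 ± 2.31 (SD, n = 159). In 27 tumors Csn1s2a was at or below background, so the lowest levels of both genes give only a bound. The middle 50% of tumors spanned 7.77 to 11.68 for Csn2 and 6.60 to 10.52 for Csn1s2a, so the spread did not come from a few tumors at either end.

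Csn1s1 (probe set 10522827) was above background in every tumor, with levels of 6.10, 11.04 and 12.83 at the lowest, the median and the highest tumor, and a mean of 10.76 ± 1.46 (SD, n = 159). Its lowest value came from the tumor of animal 14864, whose array was among the 6 of low correlation. Elf5 was 8.31 in that tumor, its lowest level in the series, where the median of Elf5 was 11.12. The luminal epithelial genes Krt8 and Epcam were low there too, at 10.39 and 8.96, against means of 12.37 and 10.68 over all tumors. Kappa casein, Csn3 (probe set 10522895), was the least variable member. It ranged over 9.25, 11.57 and 12.01 (lowest, median, highest), a 6.78-fold range, with a mean of 11.48 ± 0.42 (SD, n = 159), and the middle 50% of tumors lay between 11.37 and 11.75. All 159 tumors had Csn3 above background.

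Csn1s2b (probe set 10522858) showed the opposite distribution, at background in most tumors. Its lowest, median and highest levels were 4.77, 5.12 and 10.75, with a mean of 5.37 ± 0.77 (SD, n = 159), and 22 tumors were above background. A single tumor, of animal 14728, had the highest level of 10.75, and the next tumor was 2.34 log2 units lower at 8.41. That tumor also had the highest Csn1s2a (12.38) and the highest Wap (12.37) of the series.

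Among the milk genes outside the casein cluster, Wap (probe set 10384212) ranged over 6.51, 10.17 and 12.37 (lowest, median, highest), with a mean of 10.17 ± 1.06 (SD, n = 159). Wap encodes the main whey protein of mouse milk, and it was above background in all 159 tumors. Its lowest level came from the tumor of animal 14735, where Csn1s1 was 11.70 and Csn2 was 7.07. Glycam1 (probe set 10433172) had a lowest level of 5.19, below background, a median of 8.20 and a highest level of 12.95, with a mean of 8.25 ± 2.503 (SD, n = 159). It was above background in all but 46 tumors. The shared Lalba and Trip12 probe set (10432157) ranged from 6.61 to 12.89 with a mean of 11.45 ± 1.22 (SD, n = 159).

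**Figure D1:**
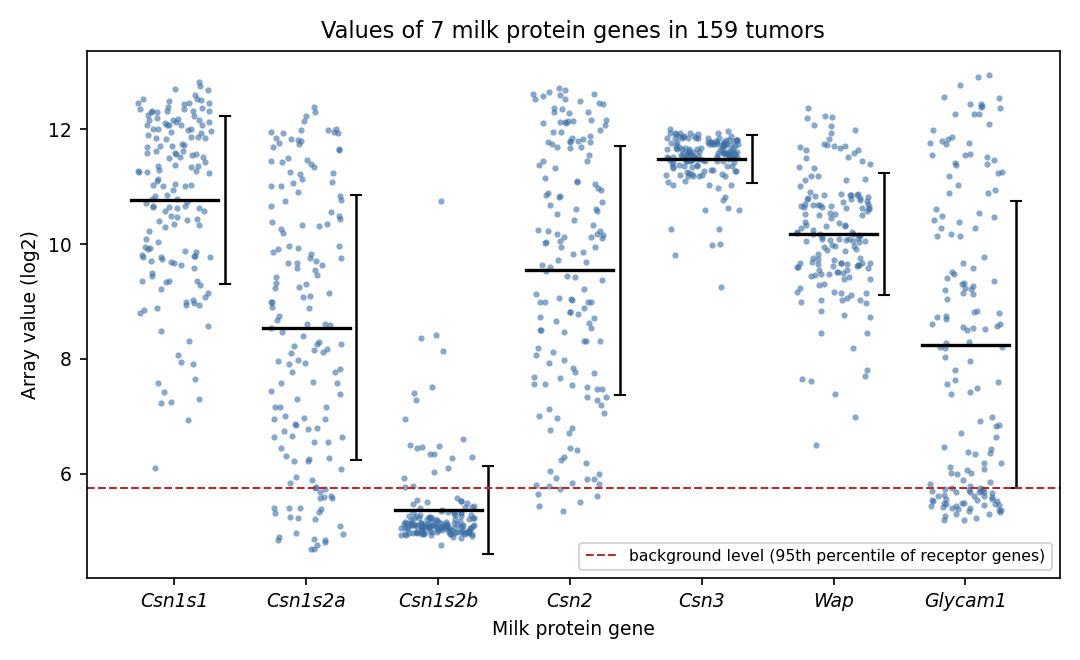
Log2 expression level (vertical axis) of the 7 measured milk protein genes in the 159 tumors, with 1 point per tumor, a bar at the mean, an error bar of 1 SD and the background level of 5.76 as a dashed line. Csn3 stays between 9.25 and 12.01, Csn1s2b lies at background in most tumors, and Csn2, Csn1s2a and Glycam1 spread from background to above 12.

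Whether a gene varied more than the typical probe set was tested by a chi-square test of its variance against the median variance of all probe sets. All 7 measured members passed at p under 0.05, where 43.9% of the 18954 genes passed. By SD, Glycam1 ranked 2, Csn1s2a 4, Csn2 7, Csn1s1 44, Wap 163, Csn1s2b 517 and Csn3 2665 among all genes. Variances were 130.7 times the median for Glycam1 and 111.2 times for Csn1s2a, against 3.64 times for Csn3. With a variance estimated from the median absolute deviation, 6 members passed and Csn1s2b, whose spread rests on few tumors, did not.

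Levels above background were nested across tumors for the calcium-sensitive caseins. In the 22 tumors with Csn1s2b above background Csn2 was 11.80 to 12.72 with a median of 12.40, and it was 5.36 to 12.45 with a median of 9.06 in the other tumors. Csn1s2a was at least 11.02, Csn1s1 at least 11.99 and Wap at least 10.69 in those 22 tumors. Glycam1 was 8.56 to 12.95 in them, with a median of 11.65, and Csn3 was 11.29 to 11.94 with a median of 11.75, so both reached down to near or below their medians over all tumors in some of the 22. Likewise, every tumor with Csn1s2a above background had Csn2 above background, between 6.76 and 12.72. In the other 27 tumors Csn2 was 5.36 to 8.65. Of the tumors with Glycam1 above background, all but 1 had Csn2 above background. The 6 tumors in which Csn2 was not above background still had Csn1s1 at 7.31 to 9.28, Csn3 at 11.04 to 11.74 and Wap at 8.45 to 9.90.

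**Figure D2:**
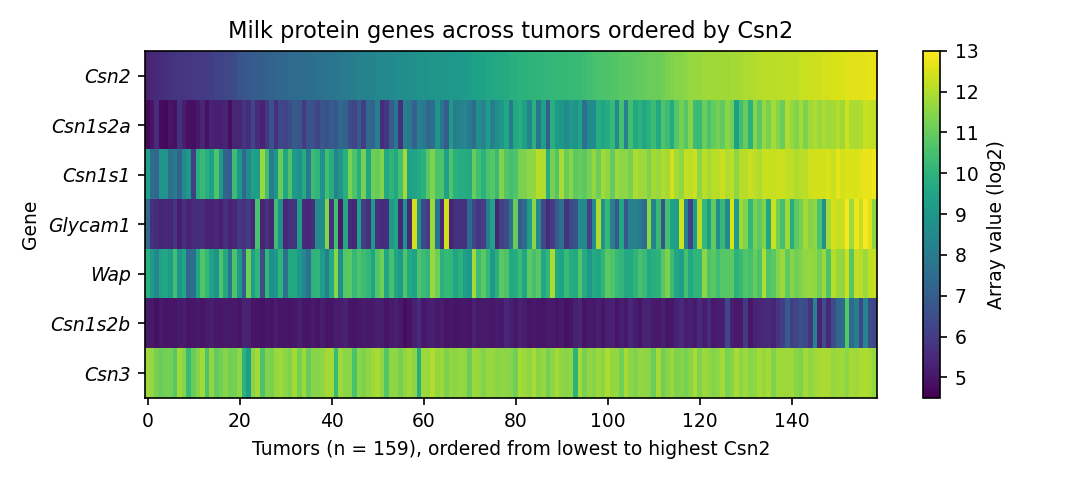
Log2 level (color) of each measured milk protein gene (rows) in the 159 tumors (columns), with tumors ordered from the lowest Csn2 (5.36) to the highest (12.72). Csn1s2a and Csn1s1 follow the order of Csn2, Csn1s2b is above background only at the high Csn2 end, and Csn3 changes little along the order.

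A mixture of 2 normal distributions described Csn2 and Glycam1 better than 1 distribution and passed the limits set (a drop in the Bayesian information criterion over 20, an Ashman separation D over 2.5 and at least 10% of tumors in each component). For Csn2 the higher component had a mean of 12.13, an SD of 0.36 and 23.2% of tumors, and the lower component had a mean of 8.77, an SD of 1.85 and 76.8% of tumors. For Glycam1 the higher component had a mean of 9.61, an SD of 1.98 and 66.1% of tumors, and the lower component had a mean of 5.60 and an SD of 0.24, near background. The components were not separate clusters: the largest gap between neighboring tumors was 0.27 for Csn2 and 0.40 for Glycam1, and both failed a limit of D over 3. The other 5 members were not called. Csn1s2a (D = 3.03) missed on the gain in fit over 1 distribution, and Csn1s1, Csn1s2b and Csn3 missed on D. Wap (D = 3.95) missed on the gain in fit and on the share of tumors, with 4.06% in its smaller component.

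All 21 pairs of the 7 members correlated positively over the 159 tumors, with r from 0.18 to 0.96 and a median of 0.53. In 20 pairs the relation passed in limma's moderated test at a Benjamini-Hochberg adjusted p under 0.05 over all genes, where 23.6% of all genes passed with Csn2, 23.2% with Csn1s2a, 19% with Csn1s1, 3.85% with Csn1s2b, 46.2% with Csn3, 9.88% with Wap and 20.2% with Glycam1 in either direction. The exception was Csn1s2b with Csn3 (r = 0.18, permutation p = 0.032, rho = 0.25, permutation p = 0.0014, adjusted p = 0.21). All 21 pairs were positive in each of the 5 blocks of animal numbers with 26 to 41 tumors.

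Csn1s2a and Csn2 were the closest pair, with r = 0.96 and rho = 0.97 (permutation p = 1e-05 for each, the smallest that 100000 permutations can give, adjusted p = 1.5e-89 by limma). Leaving out the 2 tumors farthest from the median of either gene left r at 0.96, and within blocks of animals r was 0.94 to 0.98. Csn1s1 followed both of them, with r = 0.87 and rho = 0.91 to Csn2 and r = 0.83 and rho = 0.87 to Csn1s2a (permutation p = 1e-05 for each). Per unit of Csn2 on the log2 scale, Csn1s2a rose by 1.03 ± 0.022 (slope ± SE) and Csn1s1 by 0.59 ± 0.026. The fourth calcium-sensitive casein, Csn1s2b, was less close to Csn2 (r = 0.50, rho = 0.62, permutation p = 1e-05 for each, r = 0.54 or 0.51 without the 2 farthest tumors of either gene). Csn1s2b rose by 0.18 ± 0.024 per unit of Csn2.

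Csn3, although it lies in the same cluster and its product is part of the same micelle, was the member least like the others. Its 6 correlations were 0.18 to 0.40, with r = 0.37 and rho = 0.38 to Csn2 (permutation p = 1e-05 for each) and a slope of 0.071 ± 0.014 per unit of Csn2. With Wap it had r = 0.30 and rho = 0.30 (permutation p = 0.0002 and 0.00013), which became 0.41 without the 2 tumors farthest in Csn3 and 0.21 without the 2 farthest in Wap, and r within blocks was 0.05 to 0.65.

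Wap and Glycam1, on chromosomes other than the casein cluster, correlated more closely with Csn2 than Csn3 did. Glycam1 had r = 0.71 and rho = 0.74 to Csn2, and r within blocks was 0.53 to 0.78. Wap had r = 0.61 and rho = 0.62 to Csn2, and r within blocks was 0.54 to 0.76. With each other, Wap and Glycam1 had r = 0.53 and rho = 0.54 (permutation p = 1e-05 for each of these values). The difference between these correlations and that of Csn3 was not tested. The shared Lalba and Trip12 probe set had r = 0.58 with Csn2, 0.59 with Csn1s1, 0.59 with Csn1s2a, 0.52 with Glycam1, 0.49 with Csn3, 0.47 with Wap and 0.27 with Csn1s2b over the same tumors, given as a description.

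The closeness of some pairs was read at both ends of the range of Csn2. Among the 42 tumors nearer to the higher Csn2 component, at 11.55 to 12.72, r with Csn2 was 0.78 for Wap, 0.68 for Csn1s2b and 0.63 for Glycam1. Among the other tumors, at 5.36 to 11.45, it was 0.36 for Wap and 0.47 for Glycam1. Csn1s2b was above background in none of these other tumors, and all 46 tumors with Glycam1 not above background were among them. Csn1s2a had r = 0.76 in the 42 tumors and 0.93 in the others, and Csn1s1 had 0.75 and 0.78 in the same order. Csn3 had r = 0.47 in the 42 tumors and 0.25 in the others. These values describe tumors split by a member itself and carry no test.

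**Figure D3:**
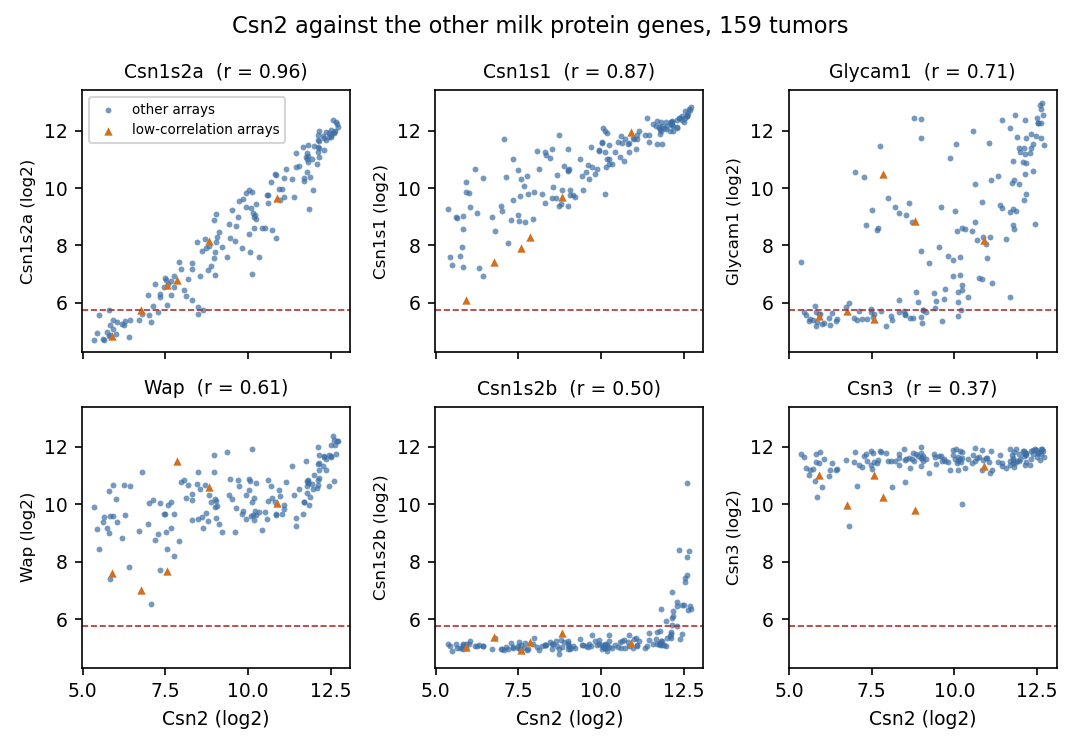
Log2 level of each other measured milk protein gene (vertical axes) against the log2 level of Csn2 (horizontal axes) in the 159 tumors, with 1 point per tumor, triangles for the 6 low-correlation arrays and the background level of 5.76 as a dashed line. Csn1s2a follows Csn2 closely (r = 0.96), Csn1s2b leaves background near the top of the Csn2 range, and Csn3 is nearly flat.

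Many genes for other parts of milk secretion rose with the milk protein genes. This list, like the other gene lists, was chosen with earlier results of these data known, so its counts are a description. Of 23 measured genes on this list, 16 were higher with Csn2 and none lower, where 11.3% of all genes were higher and 12.3% lower. Their median r with Csn2 was 0.45, against -0.01 over all genes. Counts of higher genes were 18 with Csn1s1 (background 10.4%), 16 with Csn1s2a (11.3%), 13 with Csn1s2b (2.5%), 18 with Csn3 (21.9%), 14 with Wap (4.45%) and 14 with Glycam1 (9.82%), and none of the 23 was lower with any member. As background, 8.63% of all genes were lower with Csn1s1, 11.9% with Csn1s2a, 1.35% with Csn1s2b, 24.3% with Csn3, 5.43% with Wap and 10.4% with Glycam1. Lao1, an amino acid oxidase found in mouse milk, had r = 0.71 with Csn2 and rose by 0.40 ± 0.032 per unit of it (limma adjusted p = 1.5e-22). Btn1a1, the butyrophilin of the milk fat globule membrane, had r = 0.67, Ltf, the iron-binding lactoferrin, had r = 0.64, and Slc34a2, a phosphate transporter, had r = 0.64. Fam20c, the kinase that phosphorylates caseins, had r = 0.64.

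Among the lipid and small-molecule genes of milk secretion, the fatty acid binding protein gene Fabp3 (r = 0.60 with Csn2), Olah, the thioesterase that ends synthesis of medium-chain fatty acids (r = 0.59), the lipase gene Cel (r = 0.62), the folate receptor gene Folr1 (r = 0.57) and the lipid droplet gene Plin2 (r = 0.52) were higher with Csn2. The connexin gene Gjb2 (0.54), the transporter genes Abcg2 (0.45) and Slc2a1 (0.40), the galactosyltransferase gene B4galt1 (0.33), which forms lactose synthase together with Lalba, the mucin gene Muc1 (0.28) and Xdh (0.27), needed for fat globule release, completed the 16. The 7 that did not pass with Csn2 were Wfdc18 (r = 0.16), Trf (0.14), Tnfsf11 (0.11), Atp2b2 (0.09), Cidea (0.05), Mfge8 (0.04) and Pigr (-0.03). Trf, the transferrin gene, and Wfdc18, a gene of the whey acidic protein family, had r = 0.67 and 0.66 with Csn3.

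In the prolactin and Stat5 list, 8 of 20 measured genes were higher and 4 lower with Csn2, where 11.3% of all genes were higher and 12.3% lower. Stat5a had r = 0.60 and rose by 0.096 ± 0.010 per unit of Csn2 (limma adjusted p = 2.2e-14), and Stat5b had r = 0.40. Elf5, which drives alveolar cell fate, had r = 0.56 with Csn2, 0.67 with Csn1s1, 0.65 with Csn3 and 0.56 with Wap. Jak2 (0.25), the glucocorticoid receptor gene Nr3c1 (0.22), Akt1 (0.33), Yy1 (0.27) and Gata3 (0.21) were also higher with Csn2. The lower genes were Socs2 (r = -0.36) and Socs1 (-0.23), which encode inhibitors of cytokine signaling, and the nuclear factor I genes Nfix (-0.27) and Nfia (-0.21). After quantile normalization Gata3 (r = 0.17) and Socs1 (r = -0.19) did not pass with Csn2. Stat5a and Elf5 were higher with each of the 7 members. Cish, another Stat5 target and inhibitor, passed with none of the 7, with r from -0.14 to 0.24, although with the values as deposited it was lower with Csn3 (r = -0.20).

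The regulators that accompanied Csn3 differed in part. With Csn3, 11 of the 20 were higher and 2 lower, where 4152 genes (21.9%) were higher and 4603 (24.3%) lower over the whole array. With the values as deposited these totals were 2789 higher and 6109 lower. Genes at background passed as well: Gtsf2 (mean 4.37) had r = -0.50 with Csn3 and Sult1b1 (mean 4.28) r = -0.49. Sult1d1 (mean 5.37) had r = 0.25, and Ppia, at a mean of 11.65, had r = 0.57. The genes named here are therefore not particular partners of Csn3. Whether differences over the whole array take part in these calls was not tested. Id2, an inhibitor of helix-loop-helix factors, had r = 0.60 with Csn3 and 0.05 with Csn2, and Nfib had r = 0.41 with Csn3 and -0.18 with Csn2. Nr3c1 (0.52), Yy1 (0.53) and Gata3 (0.50) had higher r with Csn3 than with Csn2. With Wap, 3 genes were higher (Elf5, Stat5a and Gata3) and 1 lower, Socs2, at r = -0.44. Stat5b had r = 0.22 with Wap and did not pass, and it passed with the values as deposited (r = 0.25). Over all genes 843 were higher and 1029 lower with Wap, and 1252 higher and 791 lower with the values as deposited.

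**Figure D4:**
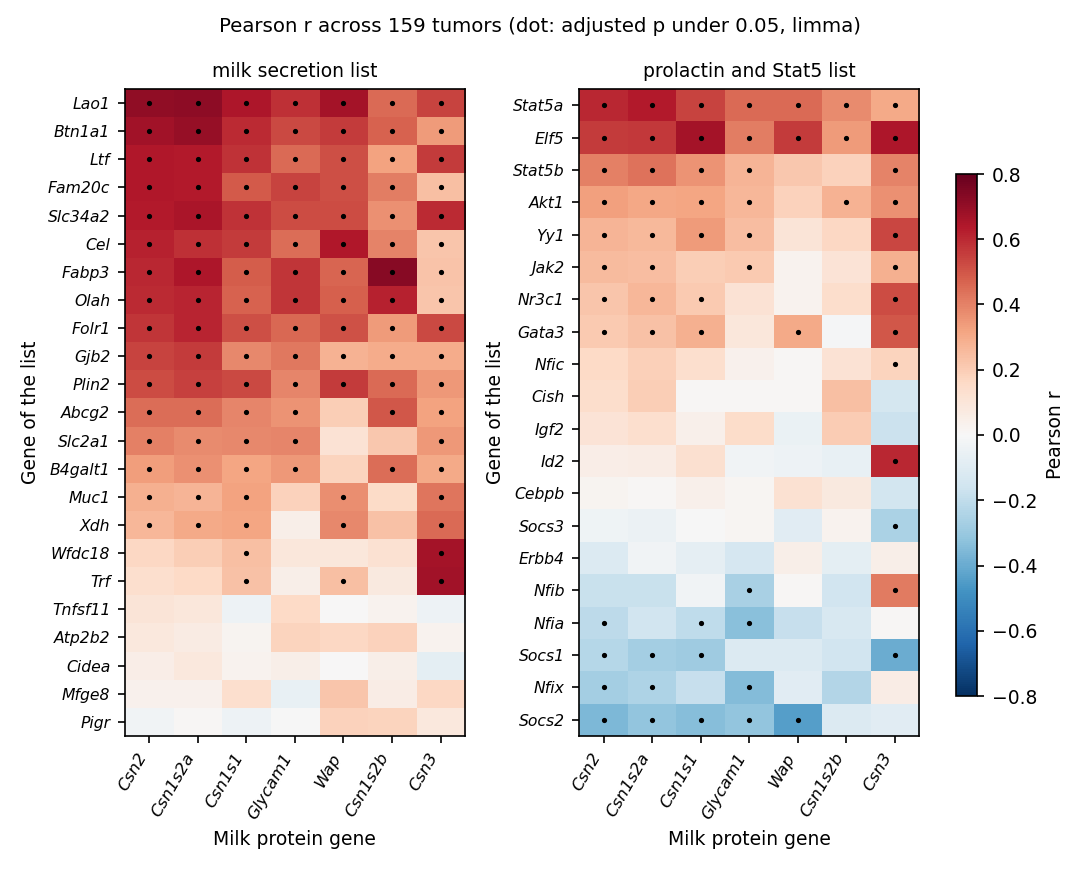
Pearson r over the 159 tumors (color) of each measured gene of the milk secretion and the prolactin and Stat5 lists (rows) with each measured milk protein gene (columns), with a dot where limma's adjusted p was under 0.05. Lao1, Btn1a1, Slc34a2, Stat5a and Elf5 are positive with all members, Trf, Wfdc18 and Id2 have r of 0.60 or more with Csn3 and 0.24 or less with the other members, and Socs2 is negative in all columns.

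Of 10 measured genes of fatty acid synthesis, 6 were higher and none lower with Csn2, where 11.3% of all genes were higher and 12.3% lower, and their median r was 0.33. Without the 6 low-correlation arrays 6 were higher and 2 lower. The number of all genes that passed with Csn2 then stayed within 1.5 times its main value, counted over both directions. The carboxylase gene Acaca, which commits acetyl-CoA to fatty acids, had r = 0.57 and rose by 0.19 ± 0.021 per unit of Csn2. Acly (r = 0.45), Thrsp (0.41) and Fasn (0.41) were also higher. Genes of involution and milk stasis were mixed, with 3 of 10 higher and 2 lower with Csn2 against the same shares, and Saa2, an acute-phase protein gene, had r = 0.45. With Csn3, 5 of these 10 were higher and 1 lower, where 21.9% of all genes were higher and 24.3% lower, and Lcn2, which encodes the iron carrier lipocalin 2, had r = 0.67 with Csn3.

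Markers of other cell types also moved with some members. The shares of all genes that were higher were 11.3% with Csn2, 11.3% with Csn1s2a, 10.4% with Csn1s1, 2.5% with Csn1s2b, 21.9% with Csn3, 4.45% with Wap and 9.82% with Glycam1. Of 9 measured adipocyte genes, 8 were higher with Csn2, 9 with Csn1s2a and 8 with Glycam1 (3 without the 9 lymphocyte-rich tumors), against 1 with Wap and 1 with Csn1s2b, and Lpl, a lipase of fat cells and of alveolar cells, had r = 0.53 with Csn2. The mean of the 9 genes was 6.19 to 11.49 (median 8.44) in the 42 tumors at the higher Csn2 level and 5.86 to 11.23 (median 7.29) in the others. Of 7 endothelial genes, 6 were higher with Csn2, 6 with Csn1s2a and 6 with Glycam1, and none with Wap, and without the 9 lymphocyte-rich tumors none was higher with Glycam1, where 6.66% of all genes were. Of 8 fibroblast genes, 4 were higher with Csn2, 4 with Csn1s2a, 6 with Csn1s1 (2 without the 6 low-correlation arrays), 6 with Csn3, 1 with Glycam1, and none with Wap or Csn1s2b, and the serine protease gene Fap had r = 0.41 with Csn2. Of 7 macrophage genes, 4 were higher with Csn2, 4 with Csn1s2a, 4 with Csn3, 2 with Glycam1 and 2 with Csn1s1 (none without the 6 arrays), and none with Wap or Csn1s2b. The mean of the 7 macrophage genes was 7.78 to 10.23 (median 9.29) in the 42 tumors at the higher Csn2 level and 8.02 to 10.01 (median 9.07) in the others, and that of the 8 fibroblast genes was 7.41 to 10.94 (median 9.91) and 7.47 to 11.08 (median 9.73) in the same order. Of 11 proliferation genes, 8 were higher with Csn1s1, 5 with Csn3, 5 with Wap and 3 with Csn2, and without the 6 low-correlation arrays 2, 0, 0 and 1. Of 8 basal, 6 hormone-sensing luminal, 7 skeletal muscle and 5 salivary gland genes, at most 2 of a list were higher and at most 2 lower with any member. Of 8 luminal epithelial genes, 3 were higher with Csn2, 6 with Csn1s1, 5 with Wap and 8 with Csn3, and without the 6 low-correlation arrays these counts were 1, 1, 2 and 4. After quantile normalization they were 1, 5, 6 and 3. In both settings the number of all genes that passed with Csn2, Csn1s1, Wap or Csn3 stayed within 1.5 times its main value. That number holds both directions, and the shares of higher genes are not given for these settings. The mean of the 8 luminal genes was 8.72 to 11.27 over all tumors, above the background level in each. With the luminal score in the model, 19 of the 21 member pairs still passed, all positive, and Csn3 with Wap did not. The part of these other cell types in the results was not tested.

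To find what each member followed apart from the shared casein level, every gene was fitted on that member with Csn2 in the same limma model, and p-values were adjusted over 18952 genes. With Csn1s2a no gene passed (0%), although 1803 genes (9.51%) had an unadjusted p under 0.05. With ranks in place of values 53 genes passed. Csn1s2a and Csn2 had r = 0.96, so their slopes are hard to separate in 1 model. The 0% therefore does not show that Csn1s2a carried nothing further. Fabp3, at 0.45 ± 0.12 per unit of Csn1s2a, did not pass (limma adjusted p = 0.14). Csn1s2b had 15 genes (0.0791%), all of them higher, so that 0% were lower. Counts were 389 for Glycam1 (2.05%), 1340 for Wap (7.07%), 4693 for Csn1s1 (24.8%) and 8359 for Csn3 (44.1%).

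The Csn1s2b genes included 4 of the 23 milk secretion genes, where 0.0791% of all genes were higher, and none of the 10 fatty acid synthesis genes. Fabp3 rose by 0.88 ± 0.088 per unit of Csn1s2b beyond Csn2 and Olah by 0.75 ± 0.12, while Abcg2, the exporter of riboflavin into milk, rose by 0.24 ± 0.050 and B4galt1 by 0.15 ± 0.034 (limma adjusted p = 2.4e-14, 4e-06, 0.0081 and 0.018). Gldc, a subunit of the glycine cleavage enzyme, rose by 0.68 ± 0.068 (adjusted p = 2.4e-14), and Sftpd, a secreted lectin, and Got1, an aspartate transaminase, rose by 0.26 ± 0.038 and 0.28 ± 0.048. The other members of the 15 were 1810065E05Rik, Fkbp11, Gpa33, Hoga1, Rapgef5, Spink8, Tmem144 and Ucp3. Over all tumors Csn1s2b had r = 0.73 with Fabp3 and 0.73 with Gldc. Leaving out the tumor of animal 14728, in which Fabp3 was 10.49, gave 83 genes, with Fabp3, Gldc, Olah, Sftpd and Got1 still among them. In even-numbered animals 4 genes passed, and Olah and Got1 were not among them.

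With Csn3 beyond Csn2, 4064 genes were higher and 4295 lower, and with the values as deposited 2725 were higher and 5822 lower. Among the 5 genes with the most positive statistics, the endoplasmic reticulum chaperone gene Hsp90b1 rose by 0.57 ± 0.043 per unit of Csn3, the disulfide isomerase gene Pdia3 by 0.58 ± 0.048 and Lcn2 by 0.28 ± 0.021 (limma adjusted p = 7.6e-24, 1.3e-20 and 3.8e-23). Cdc42, a small GTPase of cell polarity, and Sdcbp, the syntenin gene, rose by 0.60 ± 0.050 and 0.48 ± 0.040. The genes with the most negative statistics were Mir484 (-0.26 ± 0.027) and Mapt, the tau gene (-0.34 ± 0.036). Of the milk secretion genes, 12 of 23 were higher and none lower, where 21.4% of all genes were higher and 22.7% lower, led by Trf (0.49 ± 0.043) and Wfdc18 (0.53 ± 0.048). Of the prolactin and Stat5 genes, 9 of 20 were higher and 4 lower, including Id2 (0.47 ± 0.047), Elf5 (0.52 ± 0.059) and Nfib (0.53 ± 0.068). The count of 8359 genes was 4881 without the 6 low-correlation arrays and 1497 with ranks.

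With Csn1s1 beyond Csn2, 2761 genes were higher (14.6%) and 1932 lower (10.2%), but 0.575% of genes passed without the 6 low-correlation arrays and 0.433% with ranks. Pafah1b3, a subunit of the acetylhydrolase of platelet-activating factor, rose by 0.20 ± 0.028 per unit of Csn1s1 (limma adjusted p = 5.5e-07), Mpzl1, a cell surface glycoprotein gene, by 0.14 ± 0.021, and Lpar2, a lysophosphatidic acid receptor gene, by 0.13 ± 0.022. Those 3 passed also without the 6 arrays (adjusted p = 0.0063, 0.017 and 0.0052). Elf5 rose by 0.21 ± 0.035 and Tax1bp3, a PDZ protein gene, by 0.14 ± 0.023, while Rapgef3 (-0.23 ± 0.038) and Csmd1 (-0.094 ± 0.016) were lower. Without the 6 arrays these 4 did not pass (adjusted p = 0.12, 0.064, 0.10 and 0.083, in that order). Similarly, 10 of 11 proliferation genes were higher with Csn1s1 beyond Csn2, and none without the 6 arrays.

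With Wap beyond Csn2, 598 genes were higher and 742 lower. Shroom1, which encodes an actin-associated protein, rose by 0.29 ± 0.030 per unit of Wap (limma adjusted p = 1.2e-13), and Tnfrsf11a, the receptor RANK that drives alveolar growth, by 0.19 ± 0.022 (adjusted p = 3.3e-10). Tmem44, Slc29a4 (a monoamine transporter gene) and Fam110a rose by 0.22 ± 0.027, 0.33 ± 0.043 and 0.19 ± 0.026. Evc, a gene of the primary cilium, and Mme, the peptidase neprilysin, were lower, at -0.14 ± 0.019 and -0.44 ± 0.069. Among the milk secretion genes 9 of 23 were higher, where 3.16% of all genes were higher and 3.92% lower, with Cel (0.46 ± 0.078) and Lao1 (0.43 ± 0.074) in the lead, and 5 of 23 were higher without the 6 low-correlation arrays. The total of 1340 genes was 538 without those arrays, 2588 with the values as deposited (1921 higher and 667 lower) and 3149 after quantile normalization (2074 higher and 1075 lower). Of the prolactin and Stat5 genes, Elf5 was higher (0.14 ± 0.031) and Socs2 lower (-0.19 ± 0.048).

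Beyond Csn2, some members remained related to one another. Wap and Csn1s2b remained related in the fit on Wap (0.24 ± 0.059 per unit of Wap, limma adjusted p = 0.0048), Glycam1 and Csn1s2b in the fit on Glycam1 (0.11 ± 0.028, adjusted p = 0.013), and Csn1s1 and Wap in the fits on each of them (adjusted p = 0.017 on Csn1s1 and 0.038 on Wap). In the fit on Csn1s2b neither Wap (0.39 ± 0.096 per unit of Csn1s2b, adjusted p = 0.075) nor Glycam1 (0.78 ± 0.20, adjusted p = 0.14) passed. Csn1s2b rose by 0.31 ± 0.082 per unit of Csn1s2a and did not pass either (limma adjusted p = 0.16). A slope that did not pass this adjustment over all genes is not shown to be small. Csn1s1 with Csn1s2a had a slope of -0.055 ± 0.067 per unit of Csn1s1 once Csn2 was in the model (adjusted p = 0.54).

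Glycam1 differed from the other members in its relation to lymphocyte genes. Besides milk, Glycam1 is made by the high endothelial venules of lymph nodes, where its product binds the lymphocyte receptor L-selectin. All 9 measured lymphocyte genes were higher with Glycam1, with r from 0.31 to 0.36, where 9.82% of all genes were higher, and none of the 9 passed with any other member. They included the B cell genes Cd79b (0.36), Cd22 (0.35), Ms4a1 (0.35) and Cd79a (0.34) and the chemokine receptor gene Ccr7 (0.35). Of 6 measured genes of high endothelial venules and lymph node stroma, 4 were higher with Glycam1: Ccl19 (r = 0.37), Cr2 (0.33), Cxcl13 and Chst4 (0.27), a sulfotransferase that acts on Glycam1 in these vessels. Cr2 and Chst4 had means below background, at 5.15 and 5.36. Among the 9 lymphocyte genes 6 had a mean above background, and Cd79a (5.15) and Ms4a1 (4.78) did not. Madcam1 and Fut7 were not called with Glycam1. Cxcl13 was not particular to Glycam1, as it had r = 0.31 with Csn1s2a.

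These relations were read again without the 9 tumors that stood apart on the lymphocyte score. The score was made of these same 9 lymphocyte genes. Leaving those tumors out therefore takes away much of the spread of these genes by construction. Glycam1 was 9.49 to 12.56 with a median of 11.98 in those 9 tumors, and 5.19 to 12.95 with a median of 7.72 in the other 150, so the ranges overlapped. Csn2 was 8.62 to 12.72 with a median of 10.57 in the 9 tumors and 5.36 to 12.68 with a median of 9.71 in the others. Without the 9 tumors none of the 9 lymphocyte genes and none of the 6 venule genes passed with Glycam1, where 6.66% of all genes were higher. Then r was -0.041 for Cd79a and -0.069 for Cr2, and the genes that passed beyond Csn2 numbered 40. The mean of the 9 lymphocyte genes was 5.68 to 10.63 in the tumors nearer to the higher Glycam1 component and 5.67 to 6.29 in the other 56 tumors.

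The relation of Glycam1 to the milk genes did not depend on those tumors. Without them r between Glycam1 and Csn2 was 0.72, and between Glycam1 and Csn1s2a 0.73, and 16 of the 23 milk secretion genes were higher with Glycam1. Beyond Csn2, the genes with the most positive statistics for Glycam1 were Ppp1r1a, an inhibitor of protein phosphatase 1, at 0.10 ± 0.016 per unit of Glycam1 (limma adjusted p = 0.00015), Parvg (0.11 ± 0.018), Cyfip2 (0.16 ± 0.027), Haao (0.078 ± 0.013) and Hvcn1 (0.15 ± 0.027), with Snx33 (-0.038 ± 0.0084) and Nxt2 (-0.053 ± 0.012) the most negative. Of these, Ppp1r1a, Snx33 and Nxt2 passed without the 9 tumors (adjusted p = 0.0043, 0.023 and 0.015), and Parvg, Cyfip2, Haao and Hvcn1 did not (0.22 to 0.35). Olah rose by 0.16 ± 0.047 per unit of Glycam1 beyond Csn2 and was the milk secretion gene that passed, where 1.72% of all genes were higher and 0.332% lower.

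**Figure D5:**
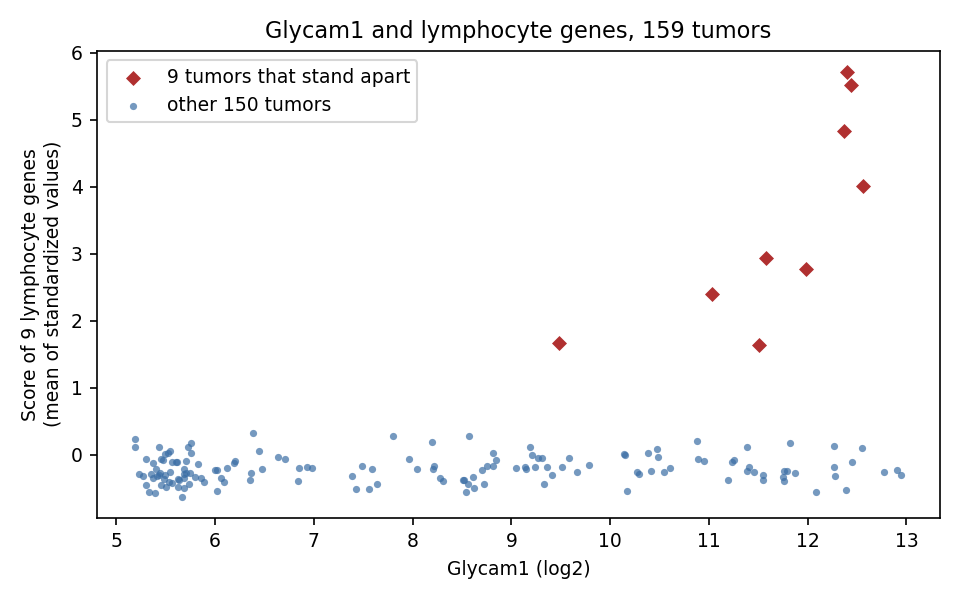
Score of the 9 lymphocyte genes (vertical axis, mean of standardized levels) against the log2 level of Glycam1 (horizontal axis) in the 159 tumors, with the 9 tumors that stood apart on the score as diamonds. Those 9 tumors have scores of 1.63 to 5.71 and Glycam1 at 9.49 to 12.56, and the other 150 stay at scores of -0.63 to 0.32 along the whole range of Glycam1.

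The genes most like the set were ranked by r to the mean of the members' standardized levels over the 159 tumors, as a description. Lao1 was highest (r = 0.79), with r of 0.45 to 0.71 to the single members. It was followed by Abhd5, the activator of triglyceride lipase (0.72), Slc34a2 (0.71), Btn1a1 (0.71), Rab11fip5, a gene of recycling endosomes (0.71), Gldc (0.69), Atp2c2, the calcium pump of the secretory pathway (0.69), Elf5 (0.68), Fabp3 (0.68) and Ltf (0.68). Of these 10, Lao1, Slc34a2, Btn1a1, Fabp3 and Ltf were on the milk secretion list and Elf5 on the prolactin and Stat5 list. Both lists were chosen with earlier results of these data known. The 5 most opposed genes were Shisa2 (r = -0.64), Zdhhc23 (-0.62), Pik3ip1, an inhibitor of phosphoinositide 3-kinase (-0.61), Rsad1 (-0.60) and Mia (-0.58).

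Genes beside the members in the genome are given as a description. Whether their counts differ from the shares over all genes was not tested. Around the casein cluster 15 neighbors within 500 kb were measured, 3 of them above background. Their r with Csn2 was -0.25 to 0.43 with a median of -0.05. With Csn2, 1 was higher (Sult1d1, a sulfotransferase gene, r = 0.43, with a mean of 5.37 at background) and 1 lower (Smr2, r = -0.25), where 11.3% of all genes were higher and 12.3% lower. With Csn3, Ugt2a3 (r = -0.31), Ugt2b38 (-0.45), Sult1b1 (-0.49), Prr27 (-0.22) and Cabs1 (-0.38), all at background, were lower. Sult1d1 (0.25) was higher with Csn3, where 21.9% of all genes were higher and 24.3% lower. Sult1b1 was also lower with Csn1s1, its nearest member (r = -0.24). Around Wap, Tbrg4 (r = 0.25) was higher and Ramp3 (r = -0.30) lower among 14 neighbors, where 4.45% of all genes were higher and 5.43% lower, and their median r was 0.01. Around Glycam1, Ppp1r1a (r = 0.38) and Nckap1l (r = 0.27), a gene of blood cells, were higher among 14 neighbors and none was lower, near the shares over all genes (9.82% higher and 10.4% lower). Without the 9 lymphocyte-rich tumors r with Glycam1 was 0.32 for Ppp1r1a and 0.08 for Nckap1l.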

How the data were processed

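Total RNA of 159 mammary tumors was hybridized to Affymetrix mouse gene ST arrays. The deposited values are log2 expression levels. Per the study's methods, the authors normalized each array to the median array in BRB ArrayTools. How background was corrected and probes were summarized is not stated. Whether the deposited values had passed that step is not stated. Here every array was shifted onto the median array. For each gene the probe set of a single symbol with the highest mean was kept (18965 such probe sets of 20718, for 18954 genes). Because the Lalba probe set carries 2 symbols, 7 members and 21 pairs were tested in place of 8 members and all their pairs. Each gene was fitted on each member, alone and with Csn2, using limma 3.58.1 (R 4.3.3, eBayes with trend, n = 159) with Benjamini-Hochberg adjustment over all genes at 0.05. Permutations numbered 100000 and were two-sided. Slopes are log2 units per log2 unit of the member. Variation, mixtures and figures used Python 3.11.15 with scipy 1.17.1, scikit-learn 1.9.0 and matplotlib 3.10.9. The fits were tested on simulated data. Arrays give no read depth, and their number limits the precision.

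The members and gene lists were chosen with earlier results of these data known. All members and the measured genes of the milk secretion, prolactin and Stat5, venule and neighbor lists could be named. Beyond these, the rule named the 10 genes most like and the 5 most unlike the members' mean, the 5 highest and 2 lowest by moderated t beyond Csn2 for each member, and up to 4 of each other list by r with Csn2. The lymphocyte genes of Glycam1, the further Csn1s2b genes, and Lcn2 beside Csn3 were named after their values were seen. Alternatives were the normalization, the probe set, the threshold, leaving out arrays or tumors, ranks, blocks of animal numbers, odd and even animal numbers, and a luminal score as a covariate.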

Additional observations from a re-analysis of the deposited data

How the results depend on the processing

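The data have no replicate groups, and the number of arrays and the signal over background limit what is detectable, most of all for Csn1s2b. No paired analysis was possible because each animal gave 1 tumor and all belong to 1 group. Of the summary counts and calls, 163 values under alternatives stayed within 1.5 times the main value and 53 moved further. Counts of higher genes in the gene lists moved by more than that in 353 of 2320 values (15.2%), a larger share than among the member pairs. Among the member pairs, 232 of the alternative values kept direction and call, 4 lost the call (Csn3 with Wap, Csn3 with Glycam1 and Csn1s1 with Csn1s2b in even-numbered animals, and Csn3 with Wap beside the luminal score), 1 gained it (Csn1s2b with Csn3 on ranks) and none changed sign. The cause of the changes was not tested, except that a stricter threshold holds fewer calls by construction.

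At the 75th percentile of the receptor genes Csn1s2b was above background in 84 tumors (22 at the 95th), and at an Ashman D over 3, with the other limits kept, the number of members with 2 levels was 0. The values that follow are shares of the genes tested that passed, listed where the number of genes moved by over 1.5 times. In the main setting the shares for each member alone were 19% (Csn1s1), 23.2% (Csn1s2a), 3.85% (Csn1s2b), 23.6% (Csn2), 46.2% (Csn3), 9.88% (Wap) and 20.2% (Glycam1), and beyond Csn2 24.8% (Csn1s1), 0% (Csn1s2a), 0.0791% (Csn1s2b), 44.1% (Csn3), 7.07% (Wap) and 2.05% (Glycam1). At an adjusted p under 0.01 they were 9.73% (Csn1s1), 14.9% (Csn1s2a), 1.49% (Csn1s2b), 15.2% (Csn2), 4.94% (Wap) and 12.3% (Glycam1) alone, and beyond Csn2 9.63% (Csn1s1), 2.43% (Wap) and 1.22% (Glycam1). Beyond Csn2, Wap had 13.7% with deposited values and 16.6% with quantile normalization, which gave 12.9% for Csn1s1. Without the 6 low-correlation arrays the share was 5.91% for Csn1s2b alone, and beyond Csn2 0.575% (Csn1s1), 25.8% (Csn3) and 2.84% (Wap). Ranks gave 15.1% (Csn1s2b) and 16.4% (Csn3) alone, and beyond Csn2 0.433% (Csn1s1), 0.28% (Csn1s2a), 6.73% (Csn1s2b), 7.9% (Csn3) and 0.00528% (Glycam1).

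In odd-numbered animals shares alone were 3.71% (Csn1s1), 10.2% (Csn1s2a), 1.38% (Csn1s2b), 12.5% (Csn2), 20.6% (Csn3), 4.04% (Wap) and 13.1% (Glycam1), and beyond Csn2 1.16% (Csn1s1), 0.00528% (Csn1s2a), 22.2% (Csn3) and 0.96% (Wap). In even-numbered animals they were 12.8% (Csn1s2a), 0.0791% (Csn1s2b), 13.3% (Csn2), 3.03% (Wap) and 4.93% (Glycam1) alone, and 13.2% (Csn1s1), 0.0211% (Csn1s2b), 1.46% (Wap) and 0% (Glycam1) beyond Csn2. Without the 9 lymphocyte-rich tumors Glycam1 beyond Csn2 had 0.211%. The luminal score gave 9.98% (Csn1s1) and 6.51% (Wap) alone and 5.5% for Csn1s1 beyond Csn2. Among genes above background alone, 40.9% passed for Csn3, 4019 genes higher and 1807 lower, and 37.6% beyond Csn2, 3913 higher and 1447 lower. There Csn1s1 beyond Csn2 had 2822 higher and 1121 lower, against 2761 and 1932 among all genes. Without the tumor of highest Csn1s2b, an alternative added after seeing the data, 10% passed for Csn1s2b alone and 0.438% beyond Csn2.

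Of the 5879 values for single genes under alternatives, 92.3% kept direction and call, 5.12% lost the call, 2.53% gained it and 3 values changed sign: Trf with Wap, r = -0.079 in even-numbered animals (0.24 in all), and Cr2 (-0.069) and Cd79a (-0.041) with Glycam1 without the 9 tumors (0.33 and 0.34 in all).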
